A study of Rattus norvegicus with 2 samples.

Results

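MiR-129, miR-135, miR-139, miR-218, miR-22 and miR-324 have been tied in earlier work to ion channels, synaptic scaling or the seizure threshold. Here their mature forms were compared, precursor by precursor and arm by arm, between the hippocampus after status epilepticus (SE) and the control hippocampus. The members were all rows of the deposited count table that carry 1 of these 6 rat miRNA numbers, whatever the letter, copy or arm suffix. The rule itself uses no measured value, although the families were picked with earlier results of these data known. There were 13 such rows among the 390 miRNAs of the table, 328 of which are known rat miRNAs. They were 3 rows of miR-129 and 2 each of miR-135, miR-139, miR-218, miR-22 and miR-324, so that every family was represented by both arms. All 13 had counts in both libraries, and 12 had at least 30 counts in either library. The exception was miR-324-3p.

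The experimental group consisted of adult male Wistar rats, 5 months old, in which an electrode implanted in the right amygdala was used to evoke SE by 20 min of stimulation of its lateral nucleus, with further stimulation where the criteria of SE were not met. Control rats of the same strain and age underwent the same surgery and sham stimulation, without receiving current, per the study's methods. The left hippocampus was taken 24 hours after SE from animals perfused with saline to remove blood, and the RNA of each group was pooled. Each group was thus represented by 1 pooled library, with 6 rats per group in the methods and the number of rats per pool not given in the sources used here. No difference below has a replicate check. A change in the cells that carry a miRNA and a change in its amount per cell cannot be told apart in RNA of whole tissue.

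The counts of the table summed to 5678090 for the experimental library and 6703056 for the control library. For levels, counts were scaled to 1000000 clean reads (CPM), so that 1 count was worth 0.138 CPM in the former and 0.114 in the latter. The neuronal markers miR-124-3p and miR-128-3p, which mark the labelled tissue, stood at 6957 and 29610 CPM in the experimental library and at 3262 and 40550 CPM in the control library. The marker miR-137-3p stood at 87.4 and 57.5 CPM. The list for astrocytes and oligodendrocytes summed to 1563 and 1588 CPM, with only 3 oligodendrocyte miRNAs analysed. These were miR-219-2-3p (1297 and 1236 CPM), miR-219-5p (222 and 310) and miR-338-3p (44.2 and 42.1). The list for microglia and leukocytes (3) summed to 428 and 351 CPM, most of it miR-21-5p (389 and 310). In that list miR-142-5p stood at 29.3 and 28.5 CPM and miR-146a-5p at 10.2 and 12.1. The sums were 614 and 481 CPM for the choroid plexus (2) and 27.1 and 11.4 CPM for erythrocytes (1 with at least 30 counts, miR-451-5p). Most of the choroid plexus sum was miR-448-3p (484 and 379 CPM), and the rest was miR-204-5p (130 and 102). The part of these other cells in the results was not tested.

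A miRNA is cut from a hairpin precursor, whose 5′ and 3′ sides give the 5p and the 3p arm. The arm loaded into an Argonaute protein pairs with mRNAs mainly through its seed, bases 2 to 8, and lowers translation or stability of the mRNA. Among the members, miR-129-5p is known to repress the potassium channel Kv1.1 and to take part in the downscaling of synapses, miR-324-5p represses the potassium channel Kv4.2, and miR-22 represses the purinergic receptor P2X7. MiR-135a targets the transcription factor Mef2a, which controls synapse number, and miR-218 is a neuronal miRNA made from the axon guidance genes Slit2 and Slit3. MiR-139 lies in the phosphodiesterase gene Pde2a.

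The sequences below are those of miR-129, whose copies overlap, and of both arms of miR-135a and miR-139. For miR-218a, miR-22 and miR-324 the more abundant arm is shown. The sequences were taken from RefSeq (build GRCr8), where all 13 members were matched. The seed is in capitals, and the sequences run 5′ to 3′.
rno-miR-129-5p: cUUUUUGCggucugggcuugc
rno-miR-129-1-3p: aAGCCCUUaccccaaaaag
rno-miR-129-2-3p: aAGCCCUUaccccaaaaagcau
rno-miR-135a-5p: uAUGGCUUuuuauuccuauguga
rno-miR-135a-3p: uGUAGGGAuggaagccaugaaa
rno-miR-139-5p: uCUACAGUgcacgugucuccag
rno-miR-139-3p: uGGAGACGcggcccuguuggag
rno-miR-218a-5p: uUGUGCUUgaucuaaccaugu
rno-miR-22-3p: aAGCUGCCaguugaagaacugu
rno-miR-324-5p: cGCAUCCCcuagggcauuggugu

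The 13 members carried 12 distinct seeds. The seed AGCCCUU was shared by the 3p arms of both miR-129 copies, and no seed of a member was found in any other of the 297 known miRNAs of the table that have a sequence in RefSeq. The members therefore form no seed family, apart from the miR-129 copies. As annotated, miR-129-1-3p has 19 bases, and all 19 are identical to the first 19 of the 22 bases of miR-129-2-3p. The hairpin of Mir129-1 continues with the capitals in the first line below, and the mature form from Mir129-2 ends with those in the second.
Mir129-1 hairpin: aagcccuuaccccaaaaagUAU
Mir129-2 mature: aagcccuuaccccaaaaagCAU
Over 22 bases they differ by 1 substitution, U20C, counted from 1 at the 5′ end with the base of Mir129-1 first. A read of the 19 shared bases cannot be assigned to a copy, and how such reads were counted is not given in the sources used here. The 5p arm is identical in both genes.

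In GRCr8 the hairpins lie at chr4:58589711-58589782 (Mir129-1, plus strand, within the span of the lncRNA gene LOC120102250), chr3:100657390-100657486 (Mir129-2, minus strand, overlapping no other annotated gene), chr7:28499166-28499265 (Mir135a, minus strand, overlapping LOC102548260, a lncRNA gene), chr1:165290859-165290926 (Mir139, plus strand, in Pde2a), chr10:20572523-20572632 (Mir218-2, plus strand, in Slit3), chr14:66922348-66922457 (Mir218-1, minus strand, in Slit2 and overlapping Mir3565), chr10:60805331-60805425 (Mir22, plus strand, likewise overlapping none) and chr10:55233363-55233445 (Mir324, plus strand, overlapping Acadvl). The annotation used gives gene spans without exons. Mir6326 lies within 10 kb of Mir22, and the mature form annotated for it has no row among those analysed. The mature form annotated for Mir3565 is miR-218b, which the rule would include but which has no row either. The search covered annotated miRNA genes, so that rows of the count table without a position in RefSeq were not placed. MiR-218a-5p is annotated in both Mir218 genes, and of their 3p arms that of Mir218-2 was analysed here.

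Together the members held 13729 counts in the experimental library and 20188 in the control library. These are 0.242% of the counts of the table (95% exact Clopper-Pearson bounds 0.238 and 0.246) and 0.301% (bounds 0.297 and 0.305). In CPM their sum was 1896 after SE against 2311 in the control library. At this scaling the difference lay in miR-129, which stood at 943 CPM after SE against 1428 CPM in the control library. The other 10 rows together stood at 953 CPM against 882 CPM. In unscaled counts these 10 rows were lower after SE as well, at 6900 against 7708. The share of miR-129 among the counts of the members was 61.8% in the control library and 49.7% after SE. MiR-139 made up 18.7% and 28.1%, miR-22 15.3% and 17.7%, and each of the other families 2.38% or less.

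**Figure D1:**
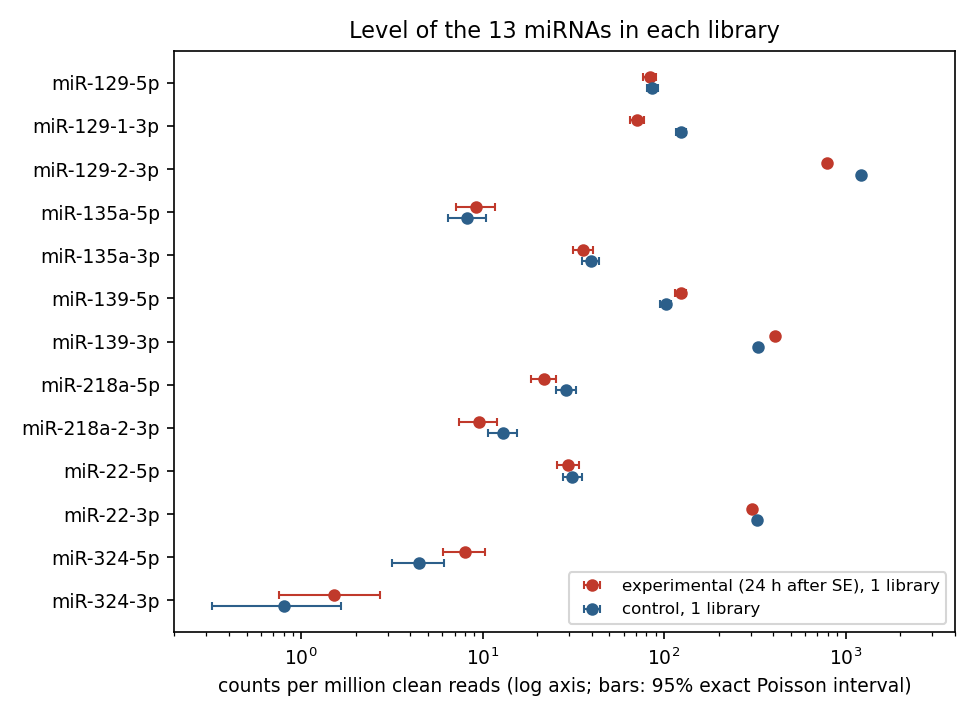
Level of each of the 13 miRNAs in CPM (log axis), with 1 point for each library and 95% exact Poisson intervals that cover counting error only. MiR-129-2-3p is the highest in both libraries (788 CPM after SE and 1219 in the control library) and miR-324-3p the lowest (1.52 and 0.801 CPM).

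The control levels of the members ran from 0.801 to 1219 CPM. A read stands for a whole miRNA, so no correction for length was made. In the control library the order began with miR-129-2-3p (1219 CPM), miR-139-3p (331) and miR-22-3p (323), and after SE with miR-129-2-3p (788 CPM), miR-139-3p (408) and miR-22-3p (305). MiR-139-3p and miR-22-3p lay close together in the control library, with 2890 and 2825 counts, and apart after SE, with 2958 and 2212. By rank in the whole table, miR-129-2-3p stood at position 24 in the control library and at position 38 after SE, and miR-129-1-3p at positions 84 and 111.

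None of the 12 members with at least 30 counts differed by more than 2-fold between the libraries. Among all 285 miRNAs that reached 30 counts, 10.2% were more than 2-fold higher after SE and 2.11% more than 2-fold lower. At a threshold of 1.5-fold, 1 member was higher (miR-324-5p), against 23.2% of the 285, and 2 were lower (the 3p arms of miR-129, which overlap in sequence), against 7.02% of the 285. The screening criteria of the study's methods (a log2 ratio beyond 2 and p under 0.01, without the exclusion of a P of 0) were applied to the ratios used here. They were met by 4.21% of the 285 and by 0 members. This is not the study's own selection, since miR-99b-3p, which the study selected, had a log2 ratio of -1.58 here. By counting error alone, 3 of the 12 members were higher after SE, with the 95% interval of the log2 ratio above 0, against 40.4% of the 285, and 4 were lower, against 22.8% of the 285. The median log2 ratio was -0.08 over the 12 members and 0.10 over the 285, with 8 members below the latter median and 4 above it. With 12 rows, nothing about the members as a group is read from these shares. In edgeR's exact test with a coefficient of variation of 0.2 assumed between libraries, 0 of the 12 members and 19 of the 285 miRNAs had an adjusted p under 0.05, and the lowest adjusted p of a member was 0.35 (miR-129-1-3p).

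**Figure D2:**
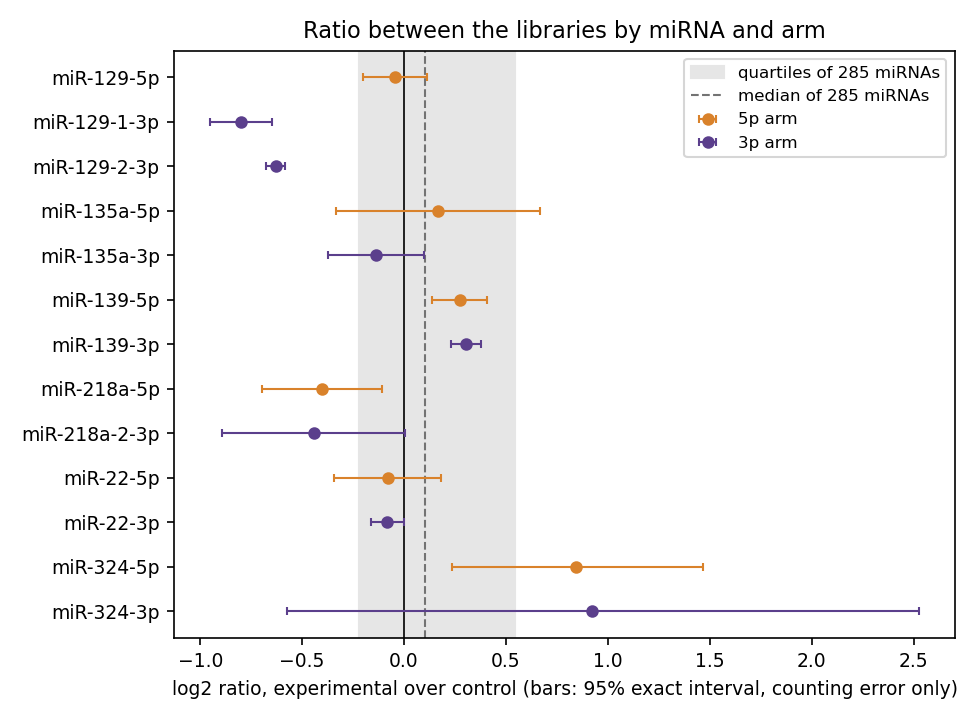
Log2 ratio of the experimental over the control library for each miRNA, coloured by arm, with 95% exact intervals for counting error. The grey band spans the quartiles of the 285 miRNAs with at least 30 counts (-0.22 to 0.54) and the dashed line is their median (0.10). Both 3p arms of miR-129 lie left of the band, as do both arms of miR-218a, and both arms of miR-324 lie right of it.

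The 3p arms of miR-129 were lower after SE, while the 5p arm, scaled by the clean reads, did not differ beyond its counting error. For miR-129-2-3p, 5709 counts stood against 10647 in the control library, or 788 CPM (95% exact Poisson bounds 768 and 809) against 1219 CPM (bounds 1196 and 1242). Its log2 ratio was -0.63 (95% bounds -0.67 and -0.58), which is 1.55-fold lower after SE (p = 3.54e-161 and Benjamini-Hochberg adjusted p = 5.6e-160, Fisher's exact test). Such a p compares these libraries and not the conditions, since variation between animals does not enter it.

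For miR-129-1-3p, 515 counts stood against 1081, or 71.1 CPM after SE against 124 CPM. Its log2 ratio of -0.80 (bounds -0.95 and -0.65) was 1.74-fold lower after SE (adjusted p = 1.52e-25, Fisher's exact test). Only 7 of the 285 miRNAs with at least 30 counts had a lower ratio than miR-129-1-3p, and 17 had a lower one than miR-129-2-3p. With unscaled counts the log2 ratios were -1.07 and -0.90, and both stayed negative under every scaling tried. The log2 ratio of miR-129-1-3p minus that of miR-129-2-3p was -0.17 (95% exact bounds -0.33 and -0.01; unadjusted p = 0.036, Fisher's exact test of copy against library), and miR-129-1-3p made up 8.27% of the 3p counts after SE and 9.22% in the control library. Because the copies share their first 19 bases, they are not independent measurements. Summed, the 3p arms stood at 859 CPM after SE against 1342 CPM, a log2 ratio of -0.64 (bounds -0.69 and -0.60).

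For miR-129-5p, the arm known to repress Kv1.1, 605 counts stood against 752, or 83.5 CPM after SE against 86.1 CPM. The log2 ratio was -0.04 (bounds -0.20 and 0.11; adjusted p = 0.67, Fisher's exact test), or a linear ratio of 0.971 with bounds of 0.871 and 1.08. With TMM and with unscaled counts the log2 ratio was -0.22 and -0.31, and the interval then lay below 0.

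The arms of miR-129 thus differed in their ratios. Against the summed 3p arms the 5p arm was higher by 0.60 on the log2 scale (95% exact bounds 0.44 and 0.76; unadjusted p = 4.65e-13, Fisher's exact test of arm against library), and its share of the reads of the family was 8.86% after SE and 6.03% in the control library. With the 3p copy of Mir129-1 alone the difference was 0.76 (bounds 0.54 and 0.98), and with that of Mir129-2 alone it was 0.59 (bounds 0.42 and 0.75). The difference between arms does not depend on the depth of the libraries.

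Scaled by the clean reads, neither arm of miR-135a differed between the libraries beyond counting error. For rno-miR-135a-5p, the arm that targets Mef2a, 67 counts stood against 72, or 9.25 CPM after SE (95% exact Poisson bounds 7.17 and 11.7) against 8.24 CPM (bounds 6.45 and 10.4). The log2 ratio was 0.17 (bounds -0.34 and 0.67; adjusted p = 0.58, Fisher's exact test). The sign was negative with unscaled counts (-0.10) and with edgeR's TMM scaling (-0.013), so that no direction can be given.

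For rno-miR-135a-3p, 260 counts stood against 345, or 35.9 CPM after SE (bounds 31.7 and 40.5) against 39.5 CPM (bounds 35.4 and 43.9). The log2 ratio was -0.14 (bounds -0.38 and 0.10; adjusted p = 0.33, Fisher's exact test), and with TMM (-0.32) or unscaled counts (-0.41) its interval lay below 0. The 3p arm was the more abundant in both libraries, with 3.88 reads per read of the 5p arm after SE and 4.79 in the control library. The share of the 5p arm was 20.5% (95% exact Clopper-Pearson bounds 16.2 and 25.3) after SE and 17.3% (bounds 13.8 and 21.2) in the control library, and these intervals overlap. The difference of the arms, 0.30 on the log2 scale (bounds -0.26 and 0.86; adjusted p = 0.40, Fisher's exact test of arm against library), was not detectable at this depth. MiR-135b, which is related to miR-135a, was not analysed here.

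Both arms of miR-139 were higher after SE, by similar amounts. For miR-139-3p, 2958 counts stood against 2890, or 408 CPM after SE against 331 CPM, and the log2 ratio was 0.30 (bounds 0.23 and 0.38; adjusted p = 3.57e-15, Fisher's exact test). For miR-139-5p, 893 counts stood against 892, or 123 CPM against 102 CPM, and the log2 ratio was 0.27 (bounds 0.14 and 0.41; adjusted p = 0.000164, Fisher's exact test). The raw counts are nearly equal, and the ratios come from the depth of the libraries. With unscaled counts neither arm was higher beyond counting error, and with TMM the 5p arm was not. Less the median of the 285 miRNAs, the log2 ratios were 0.20 and 0.17. The 5p arm made up 23.2% of the reads of the precursor after SE and 23.6% in the control library, a difference of the arms of -0.03 (bounds -0.19 and 0.12).

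Of miR-218a, the 5p arm was lower after SE beyond counting error, and the 3p arm had a similar ratio that did not pass the test. For miR-218a-5p, 158 counts stood against 252, or 21.8 CPM after SE against 28.8 CPM, and the log2 ratio was -0.40 (bounds -0.70 and -0.11; adjusted p = 0.011, Fisher's exact test). For miR-218a-2-3p, 69 counts stood against 113, or 9.53 CPM against 12.9 CPM, and the log2 ratio was -0.44 (bounds -0.89 and 0.0038; adjusted p = 0.082, Fisher's exact test). Its interval lay below 0 under each of the 5 other scalings. Summed, the family was 1.33-fold lower after SE (log2 ratio -0.41, bounds -0.66 and -0.17). As in miR-324, the 5p arm was the more abundant in both libraries, at 69.6% of the reads after SE and 69.0% in the control library. The 5p arm can come from either Mir218 gene, while the 3p arm counted here comes from Mir218-2.

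Scaled by the clean reads, miR-22 differed little between the libraries. For miR-22-3p, the more abundant arm, 2212 counts stood against 2825, or 305 CPM after SE against 323 CPM, and the log2 ratio was -0.08 (bounds -0.16 and -0.0013; adjusted p = 0.073, Fisher's exact test). Its interval ended just below 0, while the adjusted p missed 0.05. For miR-22-5p, 214 counts stood against 273, or 29.6 CPM against 31.2 CPM, and the log2 ratio was -0.08 (bounds -0.35 and 0.18; adjusted p = 0.63, Fisher's exact test). With TMM and with unscaled counts the log2 ratio was -0.26 and -0.35 for either arm, and the interval then lay below 0 for the 3p arm in both cases and for the 5p arm with unscaled counts. The share of the 5p arm was 8.82% after SE and 8.81% in the control library. Of all 86 pairs of arms tested in the table, none had a smaller difference between its arms than miR-22 (0.0016 on the log2 scale, bounds -0.28 and 0.28).

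MiR-324 was the least abundant family and the one with the highest ratio. For miR-324-5p, the arm that represses Kv4.2, 58 counts stood against 39, or 8.01 CPM after SE (95% exact Poisson bounds 6.08 and 10.4) against 4.46 CPM (bounds 3.17 and 6.10). The log2 ratio was 0.84 (bounds 0.23 and 1.47), 1.79-fold higher after SE (adjusted p = 0.010, Fisher's exact test). With unscaled counts it was 0.57 and its interval reached below 0. For miR-324-3p, 11 counts stood against 7, with a log2 ratio of 0.92 (bounds -0.58 and 2.53; unadjusted p = 0.24, Fisher's exact test), and no difference was detectable at this depth. Summed, the family was 1.81-fold higher after SE, with bounds of 0.30 and 1.43 on the log2 ratio. Of the 285 miRNAs with at least 30 counts, 243 had a lower ratio than miR-324-5p.

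**Figure D3:**
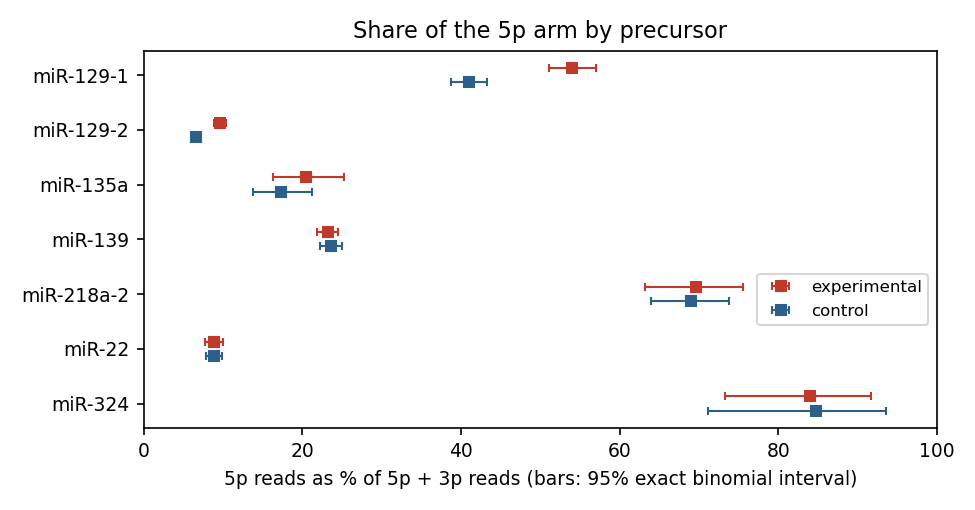
Share of the 5p arm among the reads of both arms, in percent, for the 7 precursors, with 95% exact binomial intervals. The intervals of the libraries are apart for both miR-129 pairs and overlap for the others. The shares are 54.0% after SE and 41.0% in the control library for miR-129-1, and 9.58% and 6.60% for miR-129-2. Both miR-129 pairs use the same 5p reads, which can come from either gene, so that neither share is that of a single precursor.

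Over the precursors, the share of the 5p arm thus differed between the libraries for miR-129 and not detectably for miR-135a, miR-139, miR-218a and miR-22. For miR-324, with 11 and 7 counts of the 3p arm, the difference of the arms was -0.08 on the log2 scale. Its bounds of -1.81 and 1.56 are too wide to show whether the arms differed. Of the member pairs, 6 had at least 30 counts in each arm over both libraries together. Of these, 2 had an adjusted p under 0.05 in Fisher's exact test of arm against library, both of miR-129 with its shared 5p arm. Of all 86 such pairs in the table, 50.0% did. The median size of the difference was 0.58 over the 86 pairs (quartiles 0.22 and 0.91), close to the 0.59 of miR-129-2, so that the difference between the arms of miR-129 was of a size common in the table. The pairs of miR-139, miR-218a and miR-22 lay at the other end, since 5, 7 and 0 of the 86 pairs had a smaller difference. That of miR-135a (0.30) lay between the lower quartile and the median. These ranks leave out counting error, and the bounds for miR-218a were wide (-0.50 and 0.58). The 3p arm was the more abundant in both libraries for 4 of the 6 member pairs (miR-129-2, miR-135a, miR-139 and miR-22), against 39.5% of the 86. In the miR-129-1 pair the 3p arm was the more abundant in the control library (1081 counts against 752). After SE it was the 5p arm (605 against 515). The 5p counts of this pair can come from either Mir129 gene, so that no switch of arm in Mir129-1 is read from them. Against the summed 3p copies (6224 counts after SE and 11728 in the control library) the 5p arm was the less abundant in both libraries. The more abundant arm differed between the libraries in 9 of the 86 pairs, that of miR-129-1 among them.

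**Figure D4:**
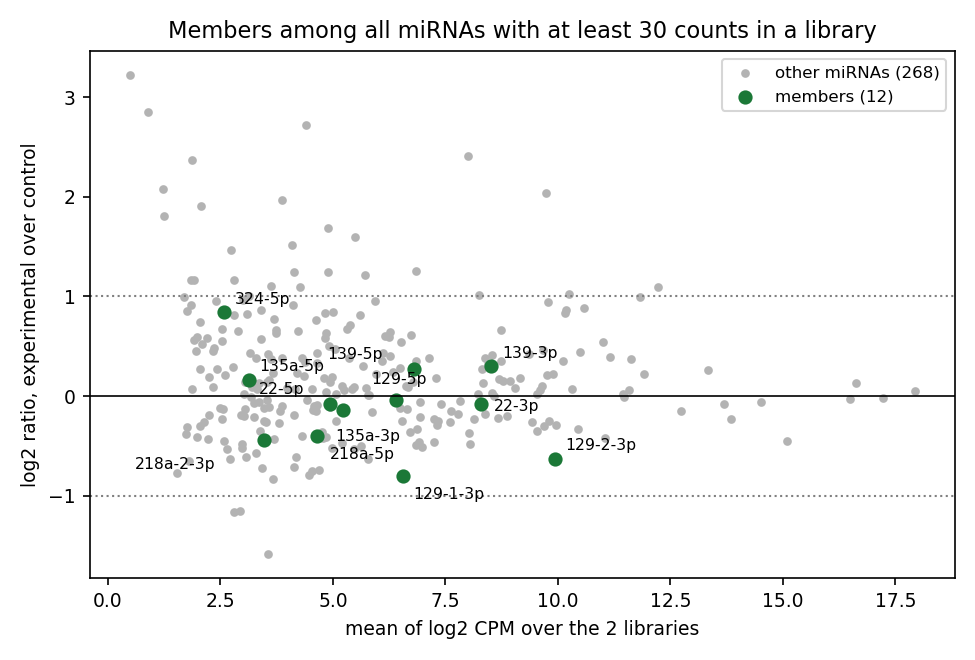
Log2 ratio of the experimental over the control library against the mean log2 CPM, for the 280 of 285 miRNAs with at least 30 counts that have counts in both libraries, with the 12 members in green. The dotted lines mark a 2-fold difference, and no member lies outside them. MiR-129-2-3p is the lowest point among the 30 miRNAs of its level or above.

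The known miRNAs with the pair of levels most like that of miR-324-5p, by distance in log2 CPM over the 2 libraries, were miR-194-5p with 53 and 40 counts, miR-29a-5p with 51 and 42, and miR-30b-3p with 53 and 33. For miR-129-1-3p, the member with the lowest ratio, they were miR-872-5p with 672 and 1041 counts, miR-411-5p with 618 and 886, and miR-322-3p with 704 and 1189. Such likeness rests on 2 values each. Of the 30 miRNAs with a mean level at or above that of miR-129-2-3p, itself included, 0 had a lower log2 ratio, and the next was miR-128-3p at -0.454 (bounds -0.461 and -0.446). This comparison was chosen after the values were seen.

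Other miRNAs tied to excitability or seizures were described beside the members from a list of 17, of which 14 were analysed here. Of these, 6 had an interval above 0, against 40.4% of all 285, and 4 an interval below 0, against 22.8% of all 285, so that nothing particular to the list is read from the counts. The median log2 ratio of the list was 0.03, with the sign reversed under 4 of the 5 other scalings, and that of the 285 was 0.10. The highest was miR-134-5p, a regulator of dendritic spines through Limk1, with 209 counts after SE against 88 and a log2 ratio of 1.52 (bounds 1.15 and 1.89). The lowest was miR-187-3p, with 227 counts against 378 and a log2 ratio of -0.46 (bounds -0.71 and -0.22). Both miR-129 3p arms had lower ratios than any miRNA of this list. More than 2-fold higher were miR-134-5p and miR-124-3p (log2 ratio 1.09), and 0 of the 14 were more than 2-fold lower.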

How the data were processed

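Small RNA libraries of 18 to 30 nt were made and sequenced by the authors from pooled hippocampal RNA, 1 library per group. The values the authors deposited are unscaled counts of reads for each miRNA, in whole numbers, although the file's header calls them normalized. Genome build rn5 is named in the submitters' processing notes, and the aligner and miRBase release are not given in the sources used here. A column headed as a detection p-value stands beside each library and was not used.

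The depth of a library was its clean reads in the study (7241570 and 8736906). Counts under 3 were set to 3 in ratios. Intervals are 95% exact Clopper-Pearson intervals (exact conditional intervals for arms, exact Poisson intervals for levels). They cover counting error only, since variation between animals does not enter them. They also treat each read as independent. PCR reads without molecular identifiers are not independent molecules, so that the intervals can be too narrow even for counting error. Fisher's exact tests were two-sided, on each count against the remaining clean reads and on arm against library. Benjamini-Hochberg adjustment was over the 285 miRNAs with at least 30 counts in either library. For arms it was over the 86 pairs in which each arm had at least 30 counts over both libraries together. With 1 library per group, no spread could be estimated.

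All members were named, with miRNAs that share a seed, neighbours within 10 kb, the extremes of the excitability list, the 3 nearest miRNAs to the members with the highest and the lowest ratio, and the pair of arms with the largest difference. The members and lists were chosen with earlier results of these data known. Alternatives were other scalings (edgeR's TMM and DESeq2's size factors among them), a pseudocount of 1, other count minimums, a fold threshold of 1.5, and edgeR's exact test at 2 assumed coefficients of variation, 0.2 and 0.4. The functions were tested on simulated data. Names, hairpin positions and sequences come from RefSeq (GRCr8). The software was Python 3.11.15, scipy 1.17.1, R 4.3.3, edgeR 4.0.16 and DESeq2 1.42.0.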

Additional observations from a re-analysis of the deposited data

How the results depend on the processing

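No paired analysis was possible because a single pooled library stands for each group, and for the same reason no library could be left out. Scaling shifted all log2 ratios alike, by -0.27 for unscaled counts, -0.18 for TMM, -0.09 for DESeq2's size factors and -0.03 for the sums of the table or the reads similar to known miRNAs. Of the intervals away from 0 in the table, 63.9% were above it when scaled by clean reads, 44.8% for TMM and 36.1% unscaled.

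Of the 12 members, 3 were higher and 4 lower by interval. With unscaled counts 0 were higher and 8 lower, against 66 and 117 of all 285, and 1 was more than 2-fold lower (miR-129-1-3p), against 12 of the 285. With TMM 7 were lower, against 100 of the 285. At a threshold of 1.5-fold in place of 2-fold, 1 was higher and 2 lower, against 66 and 20 of the 285, and in edgeR's exact test at an assumed coefficient of variation of 0.2 or 0.4, 0 were higher and 0 lower, against 19 and 5 of the 285 in either direction. MiR-135a-5p reversed sign unscaled (-0.10) and with TMM (-0.013). The arm test called 2 pairs, 1 with the copies of miR-129 summed, and 0 when a difference beyond 1 was asked for. The median of the excitability list turned to -0.24 unscaled, -0.15 with TMM, -0.059 with DESeq2's size factors, -0.00091 with the reads similar to known miRNAs and -0.15 with at least 100 counts, and 8 of the list lay below 0 by interval when unscaled. Depth limits miR-324-3p, with 11 and 7 counts.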

Other observations

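The pair of arms with the largest difference in the table was that of miR-345, where 49 counts of the 5p arm after SE stood against 90 and 393 counts of the 3p arm against 72, a difference of -3.33 on the log2 scale. The largest difference among the members, 0.76 for miR-129-5p against miR-129-1-3p, was exceeded in size by 31 of the 86 pairs.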
